A study of Mus musculus with 4 samples.

Results

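A set of 6 cytokine and receptor genes were followed through single-cell RNA-seq of CD45+ cells from mouse nasal mucosa: the ligands Il6, Osm and Lif, the receptor chains Il6ra and Il6st, and the transcription factor Stat3. They were chosen by symbol, with earlier results of these data known, and all 6 were found among the 27998 genes listed, 1 row each. The cells came from nasal mucosa of C57BL/6 mice, 8 weeks old. Vehicle mice received vehicle alone and Vehicle-OVA mice vehicle with ovalbumin, the allergen of this allergic rhinitis model, which the study's methods describe as injected with alum and then given into the nose. Ribavirin mice received the antiviral drug ribavirin, which the series title gives as a nasal spray against resident viruses, and Ribavirin-OVA mice received ribavirin with ovalbumin. All groups shared the enrichment for CD45, a surface protein of leukocytes, and each was 1 library. Values given in library order follow Vehicle, then Vehicle-OVA, then Ribavirin, then Ribavirin-OVA. How many mice were pooled in a library is not given in the sources used here, and with 1 library per group the spread between animals is unknown. The question followed here is which cells carried the Il6 messages of Vehicle-OVA and of Ribavirin-OVA.

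The interleukin-6 family is a group of cytokines that share the signalling chain gp130, the product of Il6st. Interleukin-6 first binds its own receptor chain, encoded by Il6ra, on the cell surface or shed into fluid, and oncostatin M and leukemia inhibitory factor, the products of Osm and Lif, bind gp130 together with the chains encoded by Osmr or Lifr. JAK kinases bound to gp130 then phosphorylate STAT3, which switches on genes that include Socs3, a feedback inhibitor of the same receptor. In allergic airways the family is known for its effects on T cells, B cells, epithelium and the acute-phase response.

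After the filters on cells, Vehicle held 22818 cells, Vehicle-OVA 16221, Ribavirin 18583 and Ribavirin-OVA 8497, with median depths of 4217, 3250, 4746 and 4930 UMIs (unique molecular identifiers, counts of captured messages) per cell. The barcodes of Ribavirin started at 1782 UMIs and those of the other libraries at 500 or 501, and 5.18% of the barcodes of Ribavirin but 14.3% of those of Ribavirin-OVA were at or above the mitochondrial limit of 10%. Pairs of libraries shared 57 to 174 cell barcodes. The cells fell into 41 clusters, built without the members and the listed genes of their pathway. A cluster was called "X-like" only from its list of marker genes, and 8 clusters stayed unnamed. The makeup of the libraries differed: neutrophil-like cells numbered 8627 of 16221 in Vehicle-OVA and 2025 of 8497 in Ribavirin-OVA. The monocyte-like cluster held 2316 cells in Vehicle and 1411 in Ribavirin, against 39 and 36 with OVA. Non-leukocytes were present despite the enrichment. The summed level of the 7 listed epithelial markers was 91.4 CPM (the count scaled to a common total of UMIs) in Vehicle, 395 in Vehicle-OVA, 538 in Ribavirin and 765 in Ribavirin-OVA.

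Over all cells, Il6 stood highest in Vehicle-OVA. Its level in Vehicle was 4.09 CPM (95% interval 3.75 to 4.45), that in Vehicle-OVA 30.1 (28.9 to 31.3), that in Ribavirin 5.41 (5.03 to 5.81) and that in Ribavirin-OVA 8.51 (7.87 to 9.18). These intervals and those that follow cover counting error only, and the 4 intervals of Il6 did not overlap. Vehicle-OVA was 7.36 times Vehicle (6.70 to 8.10), whereas Ribavirin-OVA was 1.57 times Ribavirin (1.42 to 1.75) and 0.283 times Vehicle-OVA (0.259 to 0.308).

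The other ligands split. Osm, made mainly by myeloid cells, stood at 118 CPM in Vehicle, 677 in Vehicle-OVA, 159 in Ribavirin and 175 in Ribavirin-OVA, so that only Vehicle-OVA was far from the rest. Ribavirin-OVA was 0.259 times Vehicle-OVA for Osm (0.254 to 0.264). Lif, a cytokine of T cells and epithelium among others, stood at 2.05 CPM in Vehicle and 2.53 in Ribavirin, against 9.35 in Vehicle-OVA and 11.7 in Ribavirin-OVA. Both OVA libraries were high for Lif, at 4.56 times (3.97 to 5.26) and 4.62 times (4.08 to 5.24) their own library without OVA.

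The receptor chains and Stat3 were higher in both OVA libraries. In library order, Il6ra stood at 79.5, 154, 77.9 and 135 CPM. Il6st stood at 24.1, 41.3, 28.4 and 64.1 CPM in library order, and was the only receptor chain of the members with its highest level in Ribavirin-OVA. Stat3 stood at 169, 387, 186 and 270 CPM.

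**Figure D1:**
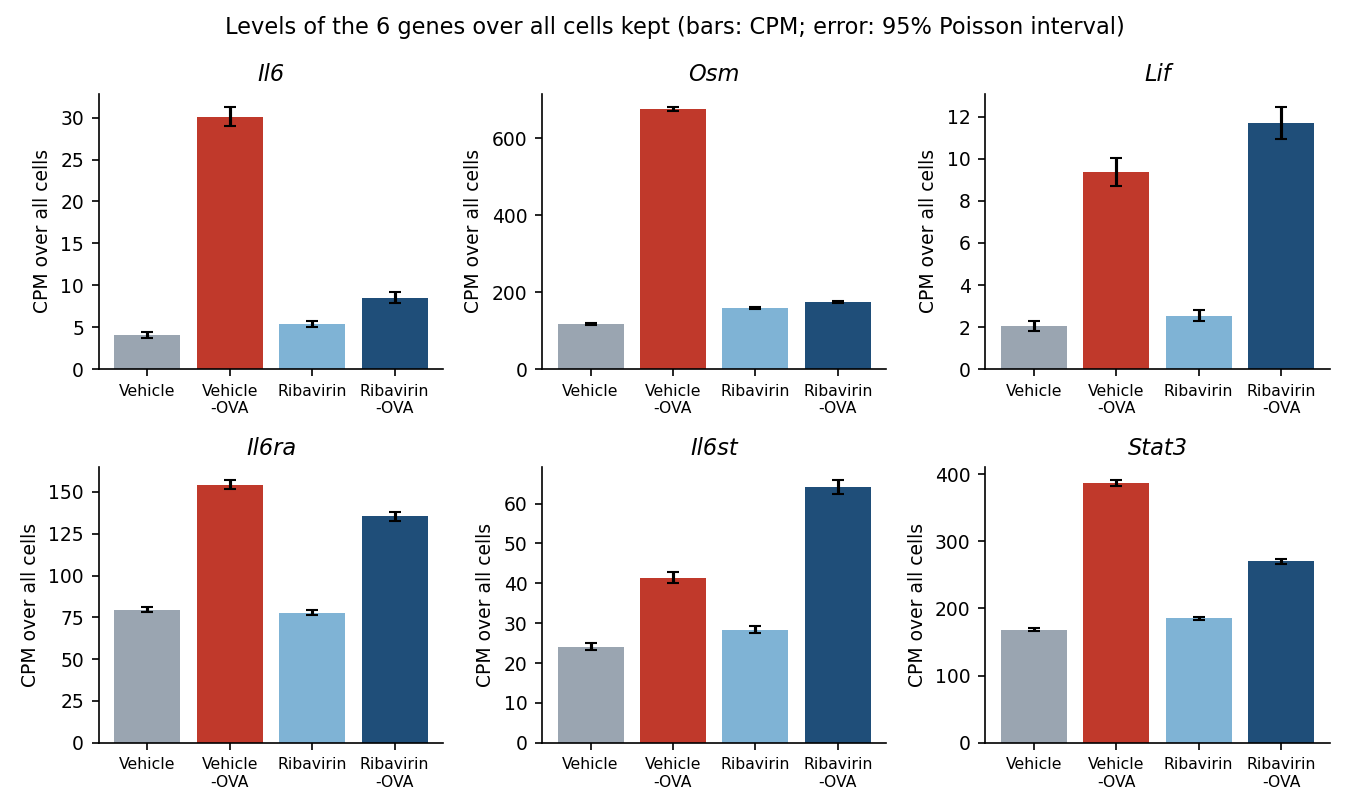
Level of each of the 6 members over all kept cells (CPM) in the 4 libraries, 1 bar per library with its exact Poisson 95% interval. Il6 and Osm stand apart in Vehicle-OVA (30.1 and 677 CPM), while Lif is high in both OVA libraries (9.35 and 11.7 CPM).

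Of the 6 members, 4 were past 2-fold higher in Vehicle-OVA than in Vehicle (Il6, Osm, Lif and Stat3), where 15.5% of all genes with enough counts were. Ribavirin-OVA over Ribavirin had 2 past 2-fold higher, Lif and Il6st, against a background of 12.3%. Ribavirin over Vehicle had 0 in either direction, with backgrounds of 15.3% higher and 0.548% lower. Ribavirin-OVA over Vehicle-OVA had 2 past 2-fold lower, Il6 and Osm, against 3.92% of all genes, and 0 higher, against 17.5%. The members were chosen with earlier results of these data known, so these counts are a description and no test of enrichment. The median log2 ratio of all genes was 0.42 for Ribavirin-OVA over Ribavirin and 0.40 for Ribavirin-OVA over Vehicle-OVA, so that relative to this median the Lif ratios under ribavirin were smaller than the CPM ratios show, and the Il6 and Osm deficits larger.

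Il6 (ENSMUSG00000025746) lies on chromosome 5, chr5:30013114-30019981 on the plus strand of GRCm38. The promoter is shown because nuclear factor kappa B, C/EBP beta and AP-1 are textbook inducers of this gene, and the C/EBP beta gene, Cebpb, is among the pathway genes measured here. The 250 bases that end just before its start, chr5:30012864-30013113 on the plus strand (RefSeq, GRCm38.p6), read as follows, with the matched letters in capitals.

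Il6 promoter: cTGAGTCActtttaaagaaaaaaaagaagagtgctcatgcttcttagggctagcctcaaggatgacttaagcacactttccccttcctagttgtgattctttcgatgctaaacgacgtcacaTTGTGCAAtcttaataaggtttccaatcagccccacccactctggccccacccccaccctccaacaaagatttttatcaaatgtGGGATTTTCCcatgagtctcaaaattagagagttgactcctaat

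The capitals mark, from the left, TGAGTCA (AP-1 type, searched as TGANTCA), TTGTGCAA (C/EBP type, searched as TTGCNNAA and matched on the reverse strand) and GGGATTTTCC (an NF-kB type site). They lie 249 to 243, 128 to 121 and 44 to 35 bases before the start, and the matches do not overlap. Both strands of 27025 promoter windows were searched. The AP-1 letters were found in 6.87% of them, the C/EBP letters in 9.55% and the NF-kB letters in 0.337%. The STAT letters TTCNNNGAA, present in 7.18% of windows, were not in the Il6 window. They were in the window of Socs3, as TTCTTAGAA, 154 to 146 bases before its RefSeq start. A match is a description of these letters and does not show that a factor was bound.

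The Il6 messages of Vehicle-OVA sat in few cells. Only 359 of its 16221 cells had an Il6 UMI, and the 10 cells with most held 41.1% of the 2522 UMIs. In Ribavirin-OVA 184 of 8497 cells had 1, and the top 10 held 38.6% of 664 UMIs. Without OVA the messages were spread more thinly, with 21.9% and 19.9% in the top 10 cells of Vehicle and Ribavirin. Cells with at least 10 Il6 UMIs numbered 5 in Vehicle, 55 in Vehicle-OVA, 7 in Ribavirin and 17 in Ribavirin-OVA.

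A pair of sources held most of the Il6 of Vehicle-OVA. The larger was cluster 7, which was led by Ccl24, Arg1 and Retnla, genes of macrophages exposed to type 2 cytokines. All 11 listed macrophage markers were detected in it, but it stayed unnamed because its leading genes included Fn1, a gene on the monocyte list. It was close to absent without OVA, with 15 cells in Vehicle and 47 in Ribavirin against 1858 in Vehicle-OVA and 1276 in Ribavirin-OVA. It held 1133 Il6 UMIs in Vehicle-OVA, 44.9% of the library's total (43.0 to 46.9), and 244 in Ribavirin-OVA, 36.7% (33.1 to 40.5). Scaled to the UMIs of the cluster this was 53.6 CPM against 15.8, a ratio of 0.295 (0.256 to 0.339). The cluster was thus present in both OVA libraries, but its makeup by the markers of single cells differed between them. Each cell was also called by the marker list with the largest share of its genes found in that cell. By this call 282 of the 1858 cells of Vehicle-OVA were monocyte-like and held 376 of the Il6 UMIs, at 136 CPM, against 75 of 1276 cells with 3 UMIs in Ribavirin-OVA. The cells called macrophage-like, 1433 and 1176, stood at 36.4 and 16.1 CPM, a ratio of 0.441 (0.378 to 0.514), which is closer to 1 than that of the whole cluster. Other calls were also found in the cluster. In Vehicle-OVA 89 cells were called neutrophil-like, with 77 Il6 UMIs at 103 CPM, and 4 plasma cell-like, with 25 UMIs. In Ribavirin-OVA these were 5 cells with 0 UMIs and 2 cells with 10. Why such cells lay in this cluster was not tested. Splitting the cluster by this call was chosen after the values were seen.

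Within cluster 7 the difference lay in the share of cells with Il6 and in the cells with many copies. An Il6 UMI was found in 154 of 1858 cells of Vehicle-OVA and in 45 of 1276 cells of Ribavirin-OVA. Cells with at least 10 UMIs numbered 29, with 847 UMIs among them, against 5 with 171. A single Ribavirin-OVA cell held 72 UMIs, 29.5% of the cluster's Il6 there, and without it the level was 11.2 CPM. The cells with Il6 were deeper than those without, with medians of 12453.5 and 10168 UMIs in Vehicle-OVA. They also carried more Lif, 32.5 against 5.65 CPM, more Osm, 554 against 410 CPM, and more Socs3, 589 against 402 CPM. In Ribavirin-OVA the Osm level was again higher in cells with Il6, 696 against 295 CPM, whereas Lif stood at 2.57 and 2.39 CPM.

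The other source was a small mast cell-like cluster. It held 28, 34, 24 and 46 cells in library order, and 21, 863, 16 and 104 Il6 UMIs. The 34 cells of Vehicle-OVA thus held 34.2% of that library's Il6 (32.4 to 36.1), and the 46 cells of Ribavirin-OVA 15.7%. The level was 181, 3898, 113 and 287 CPM, and Ribavirin-OVA was 0.0737 times Vehicle-OVA (0.0596 to 0.0904).

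**Figure D2:**
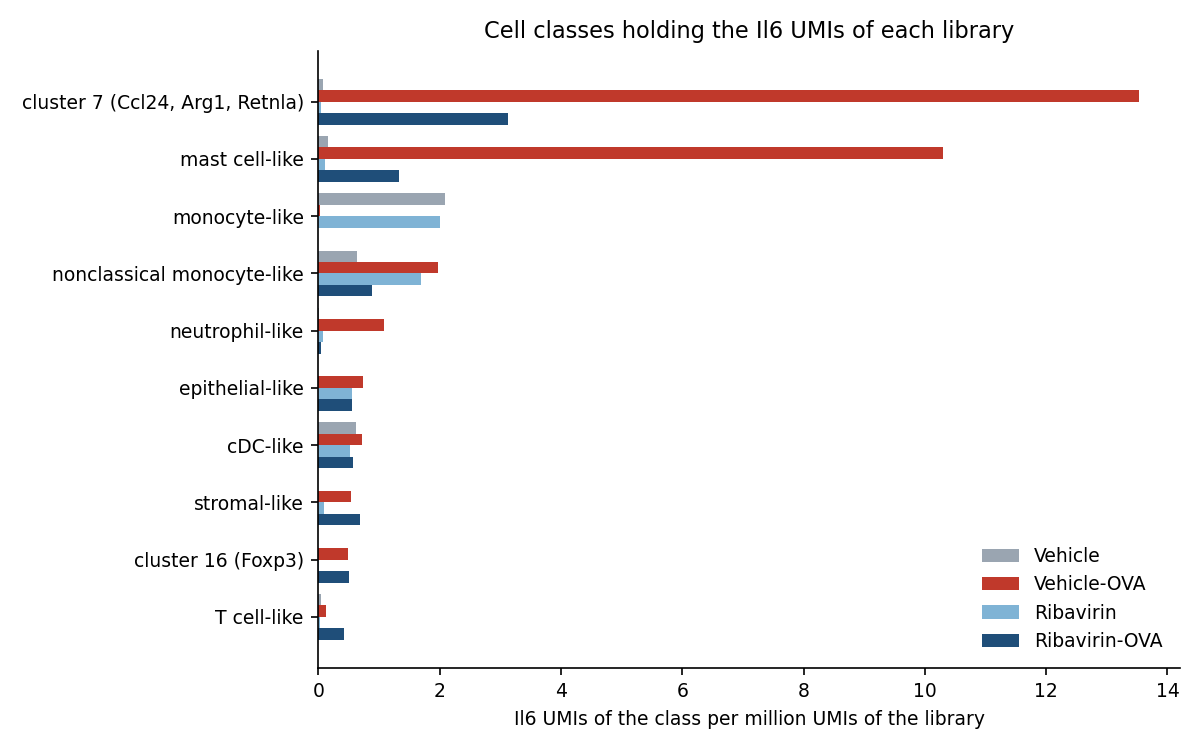
Il6 UMIs of each cell class scaled to the UMIs of the whole library (x axis, CPM), for the 10 classes and unnamed clusters drawn, with 1 bar per library. In Vehicle-OVA cluster 7 and the mast cell-like cluster hold 44.9% and 34.2% of the Il6 UMIs, against 36.7% and 15.7% in Ribavirin-OVA. Of the 863 Il6 UMIs of the mast cell-like cluster in Vehicle-OVA, 850 lie in cells led by basophil markers.

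Basophils and mast cells both store histamine and carry the IgE receptor, and the leading genes of this cluster held markers of both, so its cells were split by which list had more UMIs (Mcpt8, Prss34 and Cd200r3 for basophils, Cma1, Tpsb2 and Mcpt4 for mast cells). The split was chosen after the values were seen. Cells led by the basophil markers numbered 4, 23, 8 and 27 in library order, and held 10, 850, 15 and 92 Il6 UMIs. Those 23 cells of Vehicle-OVA, of 16221 in the library, held 33.7% of its Il6. The 27 of Ribavirin-OVA held 13.9%, at a level of 732 against 7931 CPM, a ratio of 0.0922 (0.0736 to 0.114). The cells led by mast cell markers, 6 and 17 in the OVA libraries, held only 13 and 12 Il6 UMIs.

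The Il6 difference was seen cell by cell and was not that of 1 cell. The median Il6 count of the cells led by basophil markers was 17 in Vehicle-OVA and 1 in Ribavirin-OVA, and the highest 179 and 18. At least 10 Il6 UMIs were found in 13 of 23 and 5 of 27 of them. Il4, the type 2 cytokine of basophils, stood at 2482 CPM in Vehicle-OVA and 215 in Ribavirin-OVA in these cells, but here single cells weighed: 1 cell held 144 of the 266 UMIs of Vehicle-OVA and 1 held 15 of the 27 of Ribavirin-OVA, and the median count was 0 in both. Without these cells the Il4 levels were 1240 and 99.7 CPM. Osm stood at 3872 and 2712 CPM and Gata2, a transcription factor of both lineages, at 2454 and 2680 CPM. Il6 thus differed more than Osm did, and Gata2 was not lower in Ribavirin-OVA. The neutrophil genes S100a8 and S100a9 were found in 15 and 22 of the 23 Vehicle-OVA cells, with median counts of 1 and 2. In Ribavirin-OVA each was found in 10 of the 27 cells, with a median of 0. Of the Vehicle-OVA cells, 1 with 130 Il6 UMIs held 175 UMIs of S100a8 and 148 of S100a9. By the marker call of single cells, 9 cells of the mast cell-like cluster in Vehicle-OVA were neutrophil-like. They held 361 of its 863 Il6 UMIs.

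**Figure D3:**
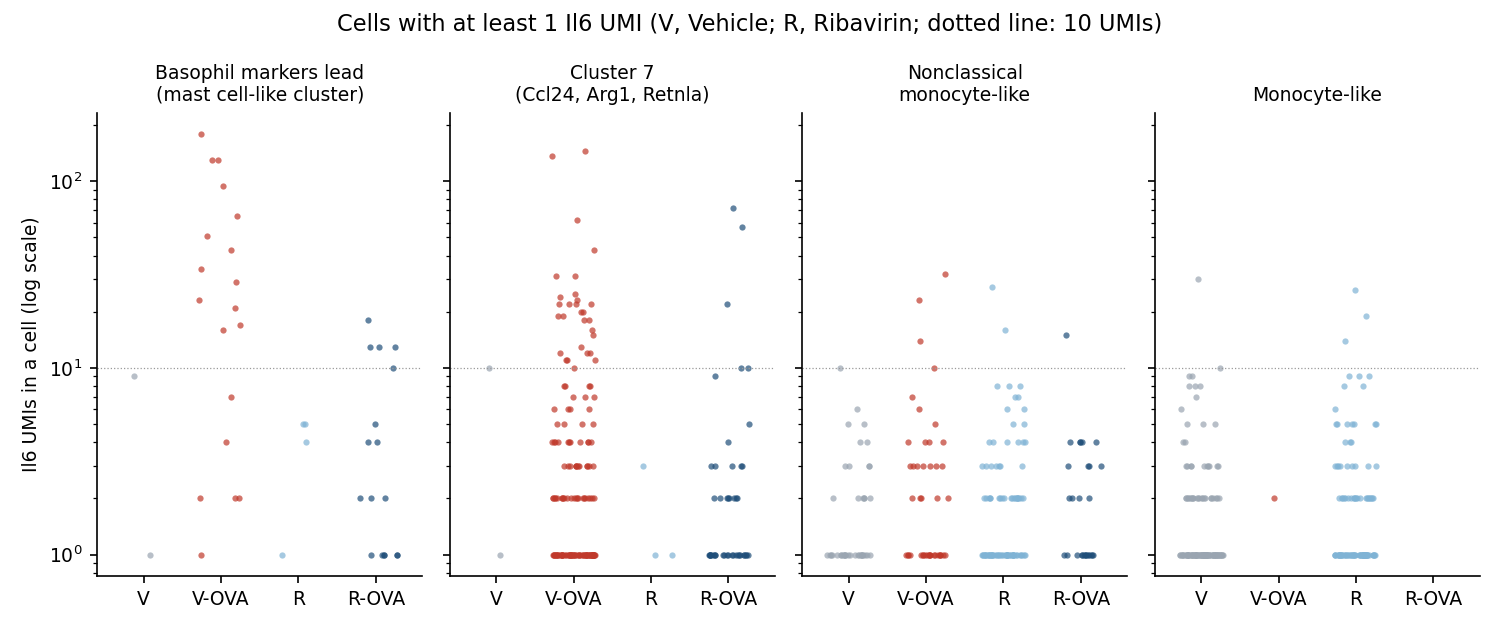
Il6 UMIs in single cells that have at least 1 (log axis), for the classes that hold most of the Il6, by library. The cells led by basophil markers reach 179 UMIs in Vehicle-OVA and 18 in Ribavirin-OVA, and the cells of cluster 7 with at least 10 UMIs number 29 and 5.

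Outside these sources Il6 was found in monocytes, dendritic cells and stroma. The nonclassical monocyte-like cluster, named after the patrolling monocytes of blood vessels, stood at 22.5 CPM in Vehicle, 68.1 in Vehicle-OVA, 45.5 in Ribavirin and 25.1 in Ribavirin-OVA. It was higher with OVA under vehicle, 3.03 times (2.31 to 3.99), and lower with OVA under ribavirin, 0.552 times (0.416 to 0.725). The cluster was mixed: its leading genes held Vcan and F13a1, of the monocyte list, beside Ace and Adgre4 of its own list. By their own markers 160 of its 262 cells in Vehicle-OVA were monocyte-like and held 120 of its 165 Il6 UMIs, while 76 were nonclassical monocyte-like and held 16. In Ribavirin-OVA the calls were 139 cells of 286 with 53 UMIs and 126 cells with 10. Without OVA, 424 of 600 cells of Vehicle and 525 of 723 of Ribavirin were called monocyte-like, so the mix differed. In library order the cells of this cluster called monocyte-like stood at 25.4, 71.5, 47.4 and 34.1 CPM. Those called nonclassical monocyte-like stood at 14.4, 29.5, 48.8 and 10.2 CPM. The monocyte-like cluster held 51.2% of the Il6 of Vehicle and 37.2% of that of Ribavirin, at 12.9 and 20.4 CPM. With OVA so few of its cells were left that their 2 and 0 Il6 UMIs could not show a difference. Cells called monocyte-like by their own markers were still found in the OVA libraries, most of them in cluster 7 and the nonclassical monocyte-like cluster. They numbered 519 in Vehicle-OVA and 274 in Ribavirin-OVA, with 504 and 62 Il6 UMIs. Their level was 105 against 23.1 CPM, a ratio of 0.220 (0.166 to 0.287), beside 19.6 CPM in Vehicle and 33.6 in Ribavirin.

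The stromal-like cluster reached 323 CPM in Vehicle-OVA and 83.2 in Ribavirin-OVA, from 17 and 42 cells with 45 and 54 UMIs. A single cell held 24 of the 45, and without it the level in Vehicle-OVA was 175 CPM. All 45 UMIs of Vehicle-OVA lay in 6 cells called neutrophil-like by their own markers, whereas 44 of the 54 of Ribavirin-OVA lay in 35 cells called endothelial-like and 10 in 3 called stromal-like. The high value of Vehicle-OVA can therefore not be credited to stromal cells. cDC-like cells (conventional dendritic cells) stood at 8.17, 18.1, 6.80 and 12.7 CPM in library order. Epithelial-like cells stood at 12.2 CPM in Vehicle-OVA and 2.79 in Ribavirin-OVA.

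Neutrophil-like cells, the most numerous class of Vehicle-OVA, held little of the Il6, with 1, 91, 11 and 4 UMIs in library order. This was 3.61% of the Il6 of Vehicle-OVA and 0.602% of that of Ribavirin-OVA. An Il6 UMI was found in 0.672% of neutrophil-like cells of Vehicle-OVA, and in 0.260% when each cell was thinned to 1000 UMIs, because depth differs between classes. NK cell-like and B cell-like cells, which served as the level that free RNA can give, had 0 of 88 and 0 of 238 thinned cells with Il6 in Vehicle-OVA, which allows shares of up to 3.41% and 1.26%. The median depths were 2952, 4692.5 and 3408 UMIs. The neutrophil-like share could therefore not be told from background. In the mast cell-like cluster the thinned share was 44.1% in Vehicle-OVA and 21.7% in Ribavirin-OVA, above those limits. In cluster 7 it was 2.65% and 0.628%, but there the level of 53.6 CPM in Vehicle-OVA was above the 5.51 CPM that a count of 0 allows in NK cell-like cells. Macrophage-like cells, led by Vcam1 and Apoe and mostly from the libraries without OVA, held 42, 4, 21 and 5 Il6 UMIs.

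The deficit of Il6 in Ribavirin-OVA against Vehicle-OVA came mainly from these sources. Cluster 7 accounted for 48.1% of the difference in CPM over all cells, the mast cell-like cluster for 41.5%, nonclassical monocyte-like cells for 5.03% and neutrophil-like cells for 4.79%. Without cluster 7 the ratio over all cells was 0.302, without the mast cell-like cluster 0.363, and without both 0.602. Without the 10 cells of highest Il6 count in each library it was 0.295. When the class levels of Ribavirin-OVA were weighted by the class makeup of Vehicle-OVA, the ratio was 0.243. This weighting equalises the makeup by class only. The cells within a class could still differ, as those of cluster 7 did by their own markers, and the part of makeup within classes was not tested. Of 11 classes and unnamed clusters with at least 20 Il6 UMIs over the pair, the interval lay below 1 in 9 and above 1 in 1, the T cell-like cells, with 33 UMIs against 11. Without the cell of highest Il6 count in each class and library, the interval lay below 1 in 6 of the 11 and still above 1 in T cell-like cells, with 23 UMIs against 6. Those that no longer lay below 1 were ILC2-like cells, cluster 16, where the levels were then 12.5 and 15.5 CPM, and cluster 17. The T cell-like levels over all their cells were 3.29 CPM in Ribavirin-OVA and 1.48 in Vehicle-OVA. They were no higher than the 3.35 CPM of neutrophil-like cells in Vehicle-OVA, whose share was not told from background. Cells called T cell-like by their own markers, many of them in cluster 16, held 59 Il6 UMIs against 49. That ratio was 0.837 (0.563 to 1.25).

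Genes induced by tissue digestion moved with Il6 over all cells. The 11 listed dissociation stress genes summed to 6446 CPM in Vehicle, 10870 in Vehicle-OVA, 7334 in Ribavirin and 7907 in Ribavirin-OVA. Within cluster 7 the sum was 9822 CPM in Vehicle-OVA and 10383 in Ribavirin-OVA, and within the mast cell-like cluster 33543 and 30867 CPM. In the classes that held most Il6, these genes thus differed by far less than Il6 between the OVA libraries. Their part in the Il6 level was not tested.

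Osm was above all a neutrophil message in Vehicle-OVA. Neutrophil-like cells stood at 607 CPM in Vehicle, 1510 in Vehicle-OVA, 913 in Ribavirin and 782 in Ribavirin-OVA, and held 72.3% of the Osm UMIs of Vehicle-OVA but 34.8% of those of Ribavirin-OVA. In Vehicle they held 30.8%, beside 28.3% in monocyte-like and 23.7% in macrophage-like cells. Within the class Ribavirin-OVA was 0.518 times Vehicle-OVA (0.503 to 0.534). The class held different clusters in the libraries: cluster 0 in Vehicle and Ribavirin, clusters 1 and 11 in Vehicle-OVA, and cluster 6 in Ribavirin-OVA. It left out cluster 2, which was led by Siglecf and stayed unnamed, though 8 of the 12 neutrophil markers were detected in it. Cluster 2 held 2822 cells in Vehicle and 2028 in Ribavirin, at 61.5 and 76.1 CPM of Osm, against 23 and 42 cells with OVA. The class levels with and without OVA are therefore not those of like sets of neutrophils.

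Cluster by cluster, the Osm difference between the OVA libraries was smaller. Cluster 11, led by Mmp8 and Retnlg, carried the highest level of the 3, 2402 CPM in Vehicle-OVA and 2094 in Ribavirin-OVA, from 1832 and 194 cells. Cluster 1, led by Csf3 and Cxcl3, stood at 1370.4 and 981 CPM, from 4830 and 255 cells. Cluster 6, whose leading genes include Siglecf, stood at 776 and 513 CPM, from 1703 and 1361 cells. Ribavirin-OVA was lower in each of these clusters, and it had fewer cells in the clusters where Osm was high.

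Weighted by the class makeup of Vehicle-OVA, the Osm ratio of Ribavirin-OVA over Vehicle-OVA was 0.574 in place of 0.259, and neutrophil-like cells accounted for 85.4% of the difference over all cells. Osm thus differed from Il6, whose ratio was not raised by this weighting. Immature neutrophil-like cells, with the granule genes Camp and Ngp, stood at 450, 830, 609 and 795 CPM in library order. Cluster 7 stood at 424 CPM in Vehicle-OVA and 316 in Ribavirin-OVA, and the mast cell-like cluster at 2051 and 1056 CPM. Of 20 classes and unnamed clusters compared, the interval of Ribavirin-OVA over Vehicle-OVA lay below 1 in 17 and above 1 in 0.

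Part of the Osm of the lymphocyte classes lay at the level of background. In Vehicle-OVA, thinned shares with an Osm UMI were 5.34% of T cell-like cells, 5.68% of NK cell-like cells and 8.40% of B cell-like cells, against 54.4% of neutrophil-like cells. T cell-like cells thus did not exceed B cell-like cells, a reference for free RNA. In Ribavirin-OVA the share was 31.7% of neutrophil-like cells, 4.76% of NK cell-like cells and 1.77% of B cell-like cells. By level B cell-like cells stood at 77.4 CPM in Vehicle-OVA and 14.5 in Ribavirin-OVA, lower in the latter like Osm over all cells, but NK cell-like cells stood at 75.3 and 67.6 CPM. NK cell-like cells were therefore not used as a background for Osm.

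Lif was spread over lymphocytes, epithelium and myeloid cells. In Vehicle-OVA cluster 7 held 22.1% of the Lif UMIs, epithelial-like cells 20.1%, T cell-like cells 17.2%, neutrophil-like cells 13.9% and cluster 16 12.5%. In Ribavirin-OVA epithelial-like cells held 35.0%, T cell-like cells 29.7%, cluster 16 13.4%, neutrophil-like cells 7.02% and cluster 7 4.06%. The myeloid share was thus larger in Vehicle-OVA. The levels of neutrophil-like cells were 4.01 and 10.5 CPM, the latter with 26 of 64 UMIs in 1 cell. Without that cell it was 6.26 CPM. Both levels lay within the intervals of B cell-like cells of the same library, given below as a reference for free RNA. The neutrophil-like Lif was therefore not told from background.

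By level, cluster 16, T cell-like and epithelial-like cells stood above these myeloid classes in the OVA libraries. Cluster 16, led by Foxp3 and Il10, genes of regulatory T cells, stood at 8.69 CPM in Vehicle, 78.9 in Vehicle-OVA, 5.35 in Ribavirin and 60.5 in Ribavirin-OVA, so that it was 9.08 times (5.76 to 14.8) and 11.3 times (6.59 to 20.8) higher with OVA. T cell-like cells stood at 5.46, 18.2, 4.40 and 27.0 CPM. Single cells weighed in both: 1 cell held 42 of the 135 T cell-like Lif UMIs of Vehicle-OVA, and 1 cell held 40 of the 122 of cluster 16 in Ribavirin-OVA. Without them the levels were 12.5 and 41.7 CPM, still above the libraries without OVA. In Ribavirin-OVA 68 of the T cell-like Lif UMIs came from the 18 cells of cluster 4, led by Il17f and Il22, 46 of them from 1 cell.

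Epithelial-like cells stood at 0.833 CPM of Lif in Vehicle, 31.4 in Vehicle-OVA, 3.66 in Ribavirin and 20.7 in Ribavirin-OVA. Nearly all of their Lif in the OVA libraries lay in cluster 31, which was led by Muc5ac, Krt5 and Krt14 (150 and 276 UMIs). In library order this cluster held 3 of 185, 59 of 156, 174 of 683 and 131 of 336 epithelial-like cells. The value of Vehicle, from 2 UMIs, thus came from a library almost without these cells. The part of this makeup in the epithelial-like Lif levels was not tested. ILC2-like cells, innate lymphocytes of type 2 responses, stood at 38.4, 84.6, 53.2 and 29.8 CPM from 15 to 24 UMIs a library, but 1 cell held 15 of the 16 UMIs of Vehicle-OVA and 1 held 12 of the 24 of Ribavirin. Without the top cell of each library their levels were 23.5, 5.41, 27.7 and 23.7 CPM. The mast cell-like cluster held 5, 39, 4 and 31 Lif UMIs, of which 38 of the 39 in Vehicle-OVA and 18 of the 31 in Ribavirin-OVA came from 1 cell each. Cluster 7 stood at 8.19 CPM in Vehicle-OVA and 2.40 in Ribavirin-OVA, a ratio of 0.293 with an upper bound of 0.420. The ratios of its Lif and its Il6 were thus close, while over all cells Lif was not lower in Ribavirin-OVA. The cluster 7 Lif of Ribavirin-OVA, 2.40 CPM, lay within the interval of B cell-like cells given next, so it was not told from background. B cell-like cells, a reference for free RNA, stood at 0.980 CPM of Lif in Vehicle-OVA (0.0248 to 5.46) and 6.03 in Ribavirin-OVA (1.96 to 14.1), and cDC-like cells at 0.906 and 0.869 CPM. The T cell-like levels, 18.2 (15.2 to 21.5) and 27.0 CPM (23.9 to 30.4), lay above both. NK cell-like cells stood at 12.9 and 5.20 CPM, but 1 cell held 6 of the 7 UMIs and 1 held 4 of the 5, and without them the levels were 1.85 and 1.04 CPM.

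**Figure D4:**
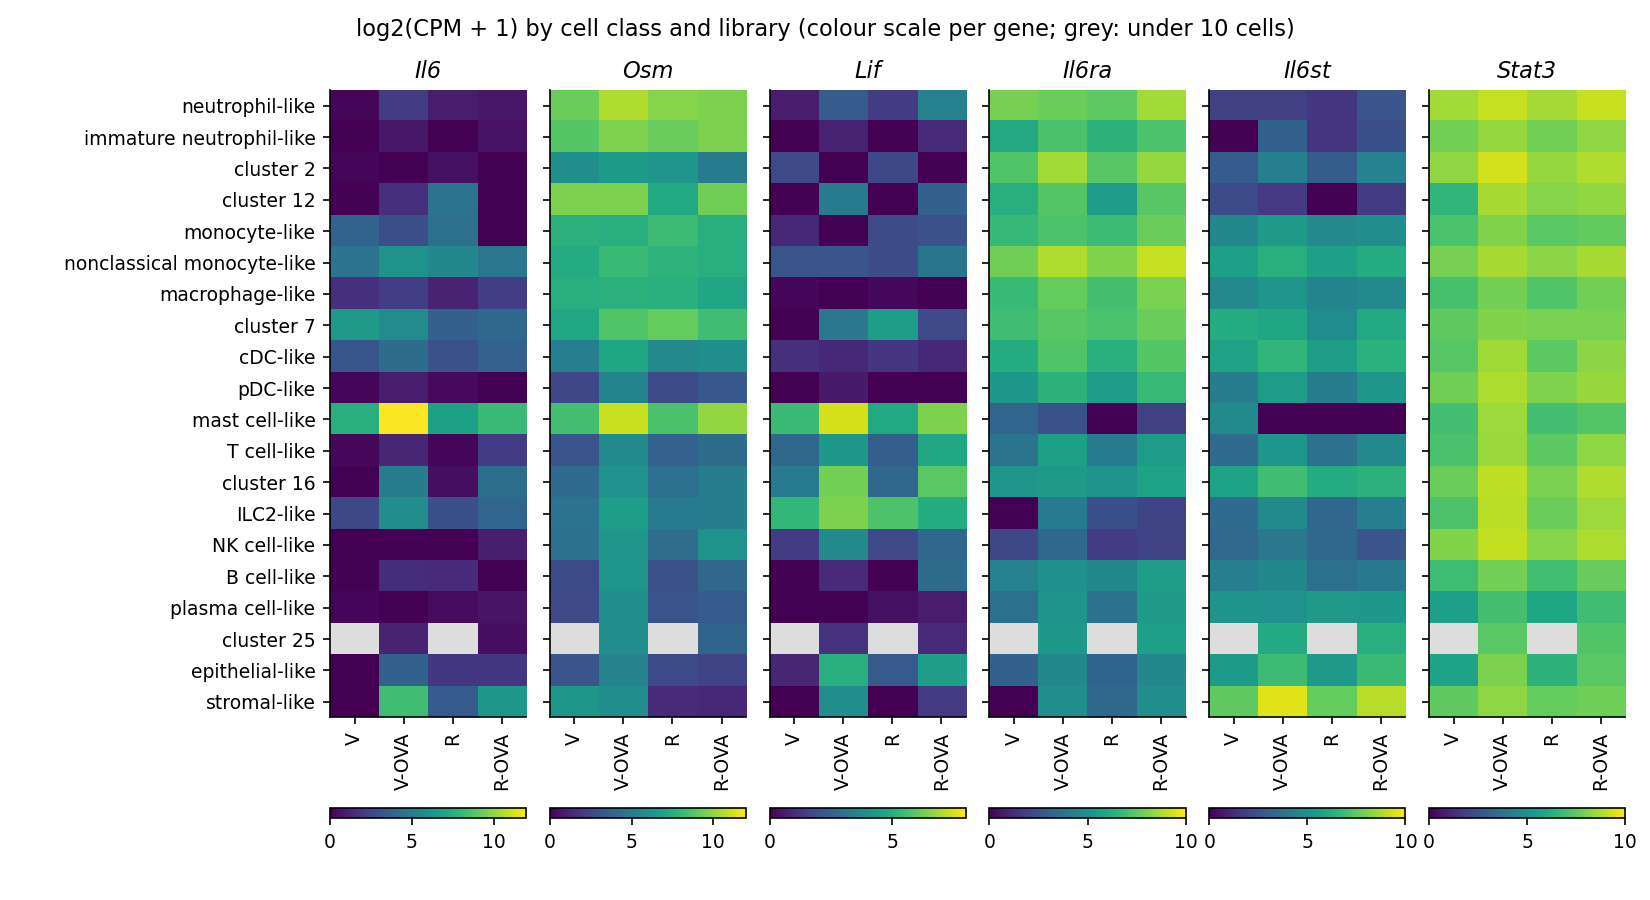
Level of each of the 6 members by cell class (rows) and library (columns), as log2(CPM + 1) with a colour scale of its own for each gene (grey, under 10 cells). Il6 and Osm are high in the mast cell-like cluster, in the OVA libraries mostly in its cells led by basophil markers. Il6ra is high in the nonclassical monocyte-like cluster (560 CPM in Ribavirin-OVA) and Il6st in the stromal-like cluster (739 CPM in Vehicle-OVA). Both of these clusters were mixed by the markers of their single cells.

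Il6ra, the chain that gives a cell its own response to interleukin-6, was a myeloid message. The nonclassical monocyte-like cluster stood at 224 CPM in Vehicle, 452 in Vehicle-OVA, 277 in Ribavirin and 560 in Ribavirin-OVA. It was 2.02 times higher with OVA under vehicle and under ribavirin alike. This cluster was mixed: by their own markers 135 of 600, 76 of 262, 119 of 723 and 126 of 286 of its cells were nonclassical monocyte-like, in library order. Macrophage-like cells stood at 105, 198, 133 and 251 CPM, and cDC-like cells at 71.3, 154, 77.1 and 165 CPM. T cell-like cells stood lower, at 13.4, 50.7, 16.5 and 45.5 CPM, with the OVA libraries again above those without. Cells of the mast cell-like cluster had at most 1 Il6ra UMI in any library.

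Neutrophil-like cells did not follow this order. Their Il6ra level was 246, 208, 183 and 388 CPM in library order, so that Vehicle-OVA was 0.845 times Vehicle (0.802 to 0.890) and Ribavirin-OVA 2.12 times Ribavirin (2.00 to 2.25). Here too the clusters differed within the class. The unnamed cluster 2, outside the class, stood at 155 CPM in Vehicle and 167 in Ribavirin. Cluster 1, most of the class in Vehicle-OVA, stood at 108 CPM there, while cluster 6, most of the class in Ribavirin-OVA, stood at 463 CPM in Vehicle-OVA and 449 in Ribavirin-OVA. Within cluster 6 the OVA libraries thus lay close together. With OVA under ribavirin, the interval lay above 1 in 18 of 18 classes compared, and under vehicle in 12 of 17, with 1 below. Weighted by the class makeup of Vehicle-OVA, the ratio of Ribavirin-OVA over Vehicle-OVA was 1.49 in place of 0.877, on the other side of 1.

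Il6st, the shared signalling chain, was highest in the stromal-like cluster. It stood there at 189 CPM in Vehicle (7 UMIs), 739 in Vehicle-OVA, 197 in Ribavirin and 481 in Ribavirin-OVA. By their own markers 4 of its 17 cells in Vehicle-OVA were stromal-like and 6 neutrophil-like. In Ribavirin 61 of 113 and in Ribavirin-OVA 35 of 42 were endothelial-like. A single cell held 26 of the 103 UMIs of Vehicle-OVA, and without it the level was 643 CPM. Epithelial-like cells stood at 42.5, 115, 41.1 and 113 CPM. Among leukocytes cluster 32, led by Crybb1 and Sall1 and with 8 of the 11 macrophage markers detected, stood at 102, 122, 92.1 and 122 CPM, near or above epithelial-like cells in each library. Cluster 16 stood at 54.3, 122, 69.9 and 84.3 CPM and cDC-like cells at 53.8, 93.7, 46.5 and 82.8 CPM. The OVA libraries were higher in each of these, but the interval of the ratio included 1 in cluster 32 for both pairs and in cluster 16 under ribavirin. Epithelial-like cells held 34.8% of the Il6st of Ribavirin-OVA and 16.6% of that of Vehicle-OVA, and at the class makeup of Vehicle-OVA the ratio of 1.55 over all cells was 0.998. The higher Il6st of Ribavirin-OVA over all cells stood beside its higher epithelial marker level, given above. The part of epithelial cells in it was not tested.

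The chains were rarely found together in neutrophils. Both Il6ra and Il6st were found in 39.3% of the cells of the mixed nonclassical monocyte-like cluster in Vehicle-OVA and in 39.2% in Ribavirin-OVA. They were found together in 35.1% and 34.1% of cDC-like cells, and in 27.4% and 35.3% of the cells of cluster 7. In neutrophil-like cells it was 0.383% and 0.840%. There Il6ra was found in 38.0% and 56.7% of cells, and Il6st in 0.811% and 1.53%, at 2.76 and 5.26 CPM. Their median depth was 2952 and 2846 UMIs, against 9104 and 8800 in nonclassical monocyte-like cells, and such shares move with depth. The mast cell-like cluster, whose cells led by basophil markers held much of the Il6, had 0 Il6st UMIs in 3 of the 4 libraries and 3 UMIs in Vehicle.

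Stat3 was found in all large classes. Neutrophil-like cells stood at 390 CPM in Vehicle, 553 in Vehicle-OVA, 405 in Ribavirin and 566 in Ribavirin-OVA, and NK cell-like cells at 271, 538, 289 and 431 CPM. T cell-like cells stood at 139, 357, 177 and 310 CPM and cluster 16 at 211, 530, 253 and 442 CPM. All of these were higher with OVA under vehicle and under ribavirin. The neutrophil-like class left out the unnamed cluster 2, which stood at 322 CPM in Vehicle and 343 in Ribavirin. In cluster 7 the OVA libraries stood at 274 and 255 CPM. The interval of Vehicle-OVA over Vehicle lay above 1 in 19 of 22 classes compared and that of Ribavirin-OVA over Ribavirin in 16 of 22, while Ribavirin-OVA over Vehicle-OVA lay below 1 in 13 of 22. At the class makeup of Vehicle-OVA the latter ratio was 0.940 in place of 0.698. Ribavirin-OVA also had fewer neutrophil-like cells, and that class held different clusters in the libraries. The part of the makeup in the lower Stat3 of Ribavirin-OVA over all cells was not tested.

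The rest of the pathway was counted from a list of 31 further genes, of which 27 or 28 had enough UMIs in each pair. The list too was chosen with earlier results of these data known, so its counts are no test of enrichment. Vehicle-OVA over Vehicle had 11 of 27 past 2-fold higher and 0 lower, against backgrounds of 15.5% and 10.9%. They were the ligand genes Ctf1 and Ebi3, the receptor genes Osmr and Il31ra, the kinase gene Jak2, the feedback inhibitor Socs3, and the listed STAT3 targets Pim1, Bcl3, Cebpb, Saa3 and Il4ra. Ribavirin-OVA over Ribavirin had 3 of 28 higher (Osmr, Il31ra and Adam10, a protease that sheds the interleukin-6 receptor) and 1 lower, Cntfr, from 4 UMIs against 64, against backgrounds of 12.3% and 3.29%.

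Between the OVA libraries, 6 of 27 pathway genes were past 2-fold lower in Ribavirin-OVA, against 3.92% of all genes. They were Ebi3, a subunit of interleukins 27 and 35, Socs3, and the listed targets Pim1, Cebpb, Batf and Saa3. Saa3, an acute-phase gene of macrophages and epithelium, stood at 186 CPM in Vehicle, 448 in Vehicle-OVA, 138 in Ribavirin and 88.0 in Ribavirin-OVA, a ratio of 0.197 (0.192 to 0.202) between the OVA libraries. Cebpb stood at 997, 2830 (Vehicle-OVA), 1153 and 885 CPM, a ratio of 0.313 (0.310 to 0.315). Socs3 stood at 344, 696, 419 and 312 CPM, a ratio of 0.449 (0.443 to 0.456). Like Osm, these genes stood highest in Vehicle-OVA and were near or below the libraries without OVA in Ribavirin-OVA. The part of the makeup in these values was not tested. Weighted by the class makeup of Vehicle-OVA, the ratio was 0.860 for Socs3, 0.727 for Cebpb, 0.935 for Pim1 and 0.981 for Ebi3, and it lay furthest from 1 for Batf, 0.568, and Saa3, 0.271. Within cluster 7 Saa3 stood at 923 CPM in Vehicle-OVA and 306 in Ribavirin-OVA, and within neutrophil-like cells at 498 and 66.4 CPM. Ctf1, 1 of 27, was past 2-fold higher in Ribavirin-OVA, where 17.5% of all genes were.

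Osmr, the chain that pairs with gp130 for oncostatin M, stood at 0.268 CPM in Vehicle, 6.41 in Vehicle-OVA, 3.80 in Ribavirin and 7.95 in Ribavirin-OVA. Osmr, Ctf1 and Cntfr, the 3 of 28 pathway genes past 2-fold higher in Ribavirin than in Vehicle (all genes, 15.3%), followed the order of the epithelial markers in that pair, 538 against 91.4 CPM, and of the stromal markers, 125 against 24.9 CPM. The part of non-leukocytes in these genes was not tested. Lifr stood at 31.7, 36.8, 31.6 and 53.1 CPM.

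**Figure D5:**
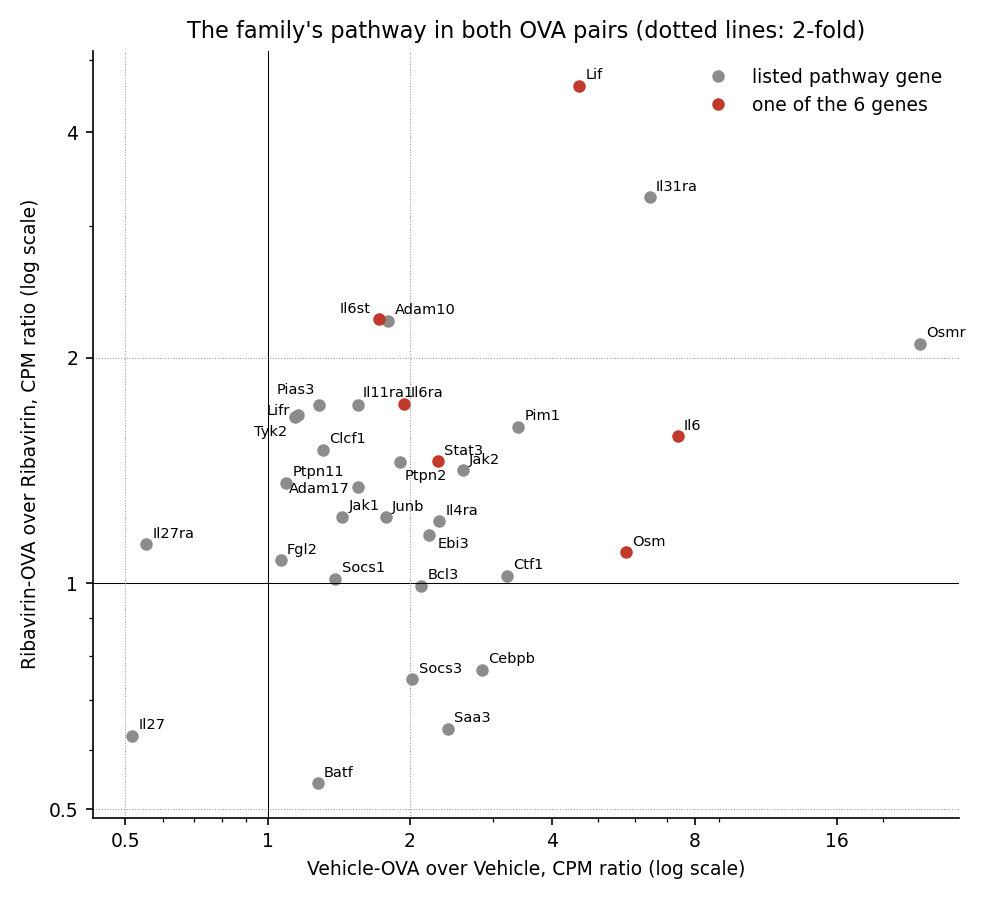
CPM ratio of each member and listed pathway gene with enough UMIs: Vehicle-OVA over Vehicle on the x axis and Ribavirin-OVA over Ribavirin on the y axis (log axes). Il6 (7.36 and 1.57) and Osm (5.73 and 1.10) lie far to the right and low, while Lif (4.56 and 4.62) lies near the diagonal.

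Likeness of pattern was measured as Pearson's r over 73 profiles of class and library, across 14315 genes. Profiles share libraries and cell makeup, so r is a description. The gene nearest to Il6 was Ccdc109b (r = 0.79), followed by Fn1 (0.77) and Tmem51 (0.76). Osm lay nearest to Lilrb4a (0.93) and Slc16a3 (0.92), Lif to Cish (0.76) and Ttc39c (0.76), Il6ra to Sirpa (0.90) and Slc15a3 (0.88), Il6st to Papss1 (0.80) and Prdx2 (0.80), and Stat3 to Usp25 (0.84) and Arid5a (0.83). Among the members r was highest for Osm with Il6ra (0.68), and Il6 was nearest to Il6st (0.47).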

How the data were processed

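For each of the 4 libraries the authors deposited a matrix of whole-number UMI counts per gene and cell barcode, not normalized and holding called cells only, from Cell Ranger 5.0.0 with mm10 per the submitters' processing notes and the file headers. The labels name magnetic beads for the CD45+ enrichment and the series text a fluorescence-based sort. Library totals were 171873110, 102796247, 168064152 and 91742940 UMIs for Vehicle, Vehicle-OVA, Ribavirin and Ribavirin-OVA.

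Cells needed 200 genes, 500 UMIs and under 10% mitochondrial UMIs. Doublets were scored per library against simulated doublets in Python 3.11.15, and the top-scoring cells were removed up to the expected share, 0.4% per 1000 barcodes (11.3%, 7.30%, 8.36% and 3.63% of passing cells), because a threshold on the score marked none in Vehicle-OVA. Log counts of 2000 variable genes gave 30 components and 15 neighbours, clustered together with leidenalg 0.10.2 at resolution 1.0 without batch correction. A name needed 3 detected markers (2-fold, 10% of cells) and no lead of another class among the top 10 genes by fold. Names are rebuilt here and may differ from those of the study.

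UMIs were summed per class and library as CPM, with exact Poisson intervals. Ratios have exact conditional binomial intervals and shares exact Clopper-Pearson intervals, all at 95% and for counting error only. UMIs of 1 library are not replicates, so no test was run. Ratios over all genes needed 50 UMIs in the pair, those named 20. Positions are from GENCODE M21, promoters from RefSeq. The scripts were tested on simulated counts. All 6 genes are described in every library, and pathway genes are named where past 2-fold, with 2 listed genes not reported here. The 6 genes and all lists were chosen with earlier results of these data known. Alternatives were other scalings, filters, resolutions and class rules.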

Additional observations from a re-analysis of the deposited data

Results flagged for a closer look

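These results lay on opposite sides of 1 for OVA under vehicle and OVA under ribavirin, with counting intervals that exclude 1 in each. With 1 library per group the difference between the pairs was not tested. Over all cells, Vehicle-OVA over Vehicle and Ribavirin-OVA over Ribavirin gave 2.02 and 0.746 for Socs3, 2.84 and 0.767 for Cebpb, 1.28 and 0.542 for Batf, and 2.41 and 0.640 for Saa3. Il27ra, a chain that pairs with gp130 for interleukin 27, went the other way, at 0.553 and 1.13.

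Within classes, Osm gave 2.49 and 0.857 in neutrophil-like cells, 2.90 and 0.555 in cluster 7, and 1.61 and 0.844 in nonclassical monocyte-like cells. Neutrophil-like cells held mostly different clusters with and without OVA, and cluster 7 had only 15 cells in Vehicle and 47 in Ribavirin. The neutrophil-like class also left out cluster 2, with 2822 cells in Vehicle and 2028 in Ribavirin against 23 and 42 with OVA. Il6 gave 3.03 and 0.552 in nonclassical monocyte-like cells, and Il6ra 0.845 and 2.12 in neutrophil-like cells. The nonclassical monocyte-like cluster was mixed, with 525 of 723 cells called monocyte-like by their own markers in Ribavirin and 139 of 286 in Ribavirin-OVA.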

How the results depend on the processing

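No paired analysis was possible because each group was 1 library, and for the same reason no replicate was left out. Of the alternative values of the main comparisons, 161 stayed within the counting interval or within 1.5 times the count and 60 did not. Of those of the other results, mainly the other members over all cells, 71 stayed, 73 moved out of the interval and 3 changed side. Osm in Vehicle-OVA over Vehicle moved in 7 of 7 alternatives. The cause of these moves was not tested. The all-cell direction of Il6 held in every alternative run for all 4 pairs of libraries. Vehicle-OVA over Vehicle was 6.36 as a mean of single-cell CPM. Ribavirin-OVA over Ribavirin was 1.20 with median-ratio scaling, 1.39 with mitochondrial shares under 5%, 1.40 with doublets kept and 1.39 with no filter on cells. Ribavirin-OVA over Vehicle-OVA was 0.210, 0.365, 0.246 and 0.312 with median-ratio scaling, single-cell means, the 5% limit and no filter, 0.363 without the mast cell-like cluster and 0.602 without that cluster and cluster 7. Other members changed side: Osm was 0.843 for Ribavirin-OVA over Ribavirin and Lif 0.930 for Ribavirin-OVA over Vehicle-OVA with median-ratio scaling, and Il6ra 1.14 for the latter pair as a mean of single-cell CPM. Members past 2-fold higher were then 1 for Ribavirin-OVA over Ribavirin (median-ratio scaling) and 1 for Ribavirin-OVA over Vehicle-OVA (single-cell means).

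Shares of Il6 by source depended on the class rule. With clusters 7 and 32 counted as macrophage-like, that class held 45.1% and 38.0% in Vehicle-OVA and Ribavirin-OVA, at resolution 2.0 it held 38.7% and 34.5%, and with classes from marker UMIs of single cells 25.3% and 36.1%. Neutrophil-like cells held 23.2% of Vehicle-OVA under that rule, where 9 cells of the mast cell-like cluster with 361 Il6 UMIs were called neutrophil-like. Such a call needed 3 detected markers of a list that holds Hdc, S100a8 and S100a9 among others. Neutrophil-like cells held 5.59% with doublets kept and 5.74% with no filter. In Ribavirin-OVA they held 1.96% with mitochondrial shares under 20%, where the level ratio was 0.648, and 1.79% with no filter. Cluster 7 or its counterpart held 38.6% of Vehicle-OVA at resolution 2.0, and 31.6% and 31.2% of Ribavirin-OVA with the 5% limit and with no filter. Its ratio was 0.212 as a single-cell mean and 0.211 with the 5% limit, and 0.441 in its cells called macrophage-like. Cells led by basophil markers held 35.9% and 22.8% with the 5% limit, at a ratio of 0.141, and 31.4% and 30.5% of Vehicle-OVA with doublets kept and with no filter.

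Without thinning, the shares of cells with a UMI, in library order, were 1.15, 2.21, 1.75 and 2.17% for Il6, 22.3, 60.2, 31.8 and 33.8% for Osm, 0.741, 1.86, 1.00 and 2.95% for Lif, 29.1, 38.0, 33.7 and 44.9% for Il6ra, 10.8, 10.5, 13.2 and 22.2% for Il6st, and 53.7, 69.9, 64.0 and 71.8% for Stat3. Clusters 7 and 32, the single-cell mean for cluster 7, the left-out clusters the splits by marker calls of single cells and the split by basophil markers were chosen after seeing the data. Depth limits what can be said of Il6 and Lif in small classes, where a few cells hold most UMIs.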
